A study of Sus scrofa with 23 samples.

Results

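The expression of 9 genes of lipopolysaccharide (LPS) sensing was followed over 23 arrays of pig bone marrow-derived macrophages: the toll-like receptors TLR2, TLR4, TLR6, TLR8 and TLR9, the LPS co-receptors CD14 and LY96, the receptor homologue CD180 and the LPS carrier LBP. They were chosen by their names in the platform annotation, not by their values, and were read by 15 of the 23999 probe sets tested. All 9 genes had a probe set, out of 6765 named genes. The marrow came from 3 largeWhite x Landrace F1 pigs, labelled male for pigs 1 and 3 and female for pig 2. Cells were grown with rhCSF1, a macrophage growth factor, and plated overnight. The labels give 6 arrays at 0 h without LPS, and 6 at 2 h, 6 at 7 h and 5 at 24 h of 100 ng/ml LPS from Salmonella enterica serotype minnesota. Each pig supplied every time and gave a culture and a duplicate culture, except pig 3 at 24 h, with 1.

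LPS is lifted from bacteria by LBP, a plasma protein made mainly in the liver, and handed by CD14 to the complex of TLR4 and LY96 (MD-2), which signals from the macrophage surface. TLR2 works with TLR1 or TLR6 as a partner and senses bacterial lipoproteins. TLR8 and TLR9 sit in endosomes, where they detect RNA and DNA. CD180 (RP105) resembles TLR4 outside the cell but lacks its signalling domain, and pairs with LY86 (MD-1), a relative of LY96.

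The labels of the arrays did not hold up against the arrays themselves. The Y-linked gene EIF1AY was high or low in contradiction to the animal's stated sex on 8 of 23 arrays. Over all probe sets other than those of the 9 genes, 0 of 22 arrays with a labelled duplicate culture were most similar to that duplicate, and 22 of 22 were most similar to a neighbour in the deposited value table (arrays 1 and 2, 3 and 4, and so on to 21 and 22). The correlation of log2 intensity over probe sets was 0.995 to 0.998 between these neighbours and 0.975 to 0.990 between labelled duplicates. All 11 neighbour pairs shared the labelled pig and 0 shared the labelled time. Differences between times are therefore given first for the arrays as labelled, where they show neither a response to LPS nor the lack of one. The values are then given by place in the table, without a time. Of 8 macrophage markers, 5 had a named probe set. AIF1 (12.62 to 13.36 log2 intensity), CD163 (7.85 to 11.36), MRC1 (6.20 to 8.71) and MARCO (5.58 to 6.15) stayed above 5 on every array, the level below which probe sets were treated as dim, and ITGAM lay around it at 4.39 to 5.03.

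By label, none of the 9 genes passed the test between LPS-treated and unstimulated macrophages. TLR2 had a lowest, median and highest log2 intensity of 10.51, 11.83 and 12.67 on the arrays labelled 2 h, and of 10.64, 12.09 and 12.50 on those labelled 7 h. The 5 arrays labelled 24 h had 10.53, 12.05, 11.63, 12.35 and 12.52, against 10.72, 11.97 and 12.63 (lowest, median and highest) at the labelled 0 h. Each labelled time thus held nearly the full range of the gene, and all 4 overlapped.

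CD14 overlapped in the same way under the labels. Its lowest, median and highest log2 intensity were 7.85, 9.03 and 10.81 at the labelled 2 h and 7.46, 9.28 and 10.36 at 7 h. At 24 h they were 7.13, 9.25 and 10.28, against 7.80, 9.06 and 11.00 at 0 h. The plot of values by label shows the spread of both genes, and of TLR4 and TLR8, within each labelled time.

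**Figure D1:**
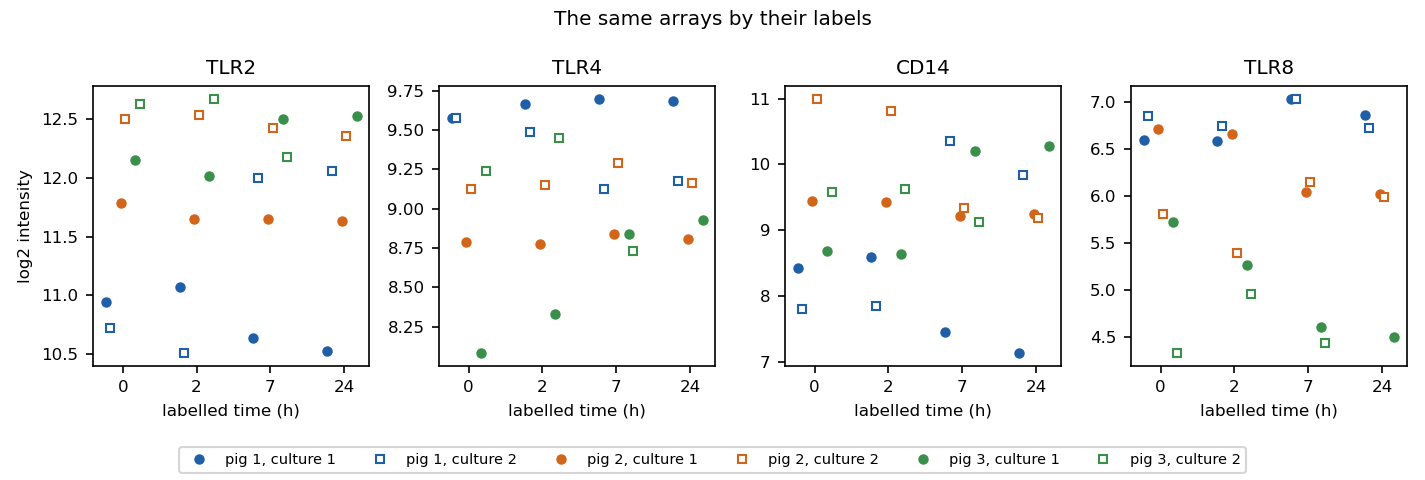
Log2 intensity of TLR2, TLR4, CD14 and TLR8 on the 23 arrays by labelled time in hours; each point is 1 array, coloured by labelled pig, filled for the first and open for the duplicate culture. Every labelled time holds both high and low arrays, as for TLR2 between 10.51 and 12.67 at the labelled 2 h.

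With duplicate cultures averaged and the pig as a block (limma, Benjamini-Hochberg adjustment over 23999 probe sets), 0 of 9 genes passed at 2 h against 0 h, where 0.0125% of all probe sets passed. At 7 h against 0 h 0 of 9 passed, where 0% of all did, and at 24 h against 0 h 0 of 9, where 0.00417% did. Over all times the count was again 0 of 9, where 0.00833% of all passed. The lowest adjusted p of the 9 was 0.914, at 24 h, and 0 of the 15 probe sets had an unadjusted p under 0.05 in any of these limma tests.

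TLR2 averaged 11.93 ± 0.62 at the labelled 24 h and 11.79 ± 0.83 at 0 h (log2, SD, n = 3 labelled pigs). Its log2 difference was 0.15 ± 0.14 (SE), with a 95% interval of -0.17 to 0.46 (limma, adjusted p = 0.914). CD14, whose labelled pigs differed more, averaged 9.33 ± 0.90 at 24 h and 9.16 ± 1.05 at 0 h, and its difference of 0.17 had an interval of -0.75 to 1.10. TLR4 averaged 9.11 ± 0.28 at 24 h and 9.07 ± 0.47 at 0 h, a difference of 0.05 with an interval of -0.15 to 0.25. The intervals of LY96 were the narrowest of the 9, from -0.10 to 0.27 at 24 h. Since each labelled group mixes high and low arrays, these intervals describe the labels only. Each labelled pig also held arrays with high and with low EIF1AY, so n and the block follow labels and may not follow animals.

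**Figure D2:**
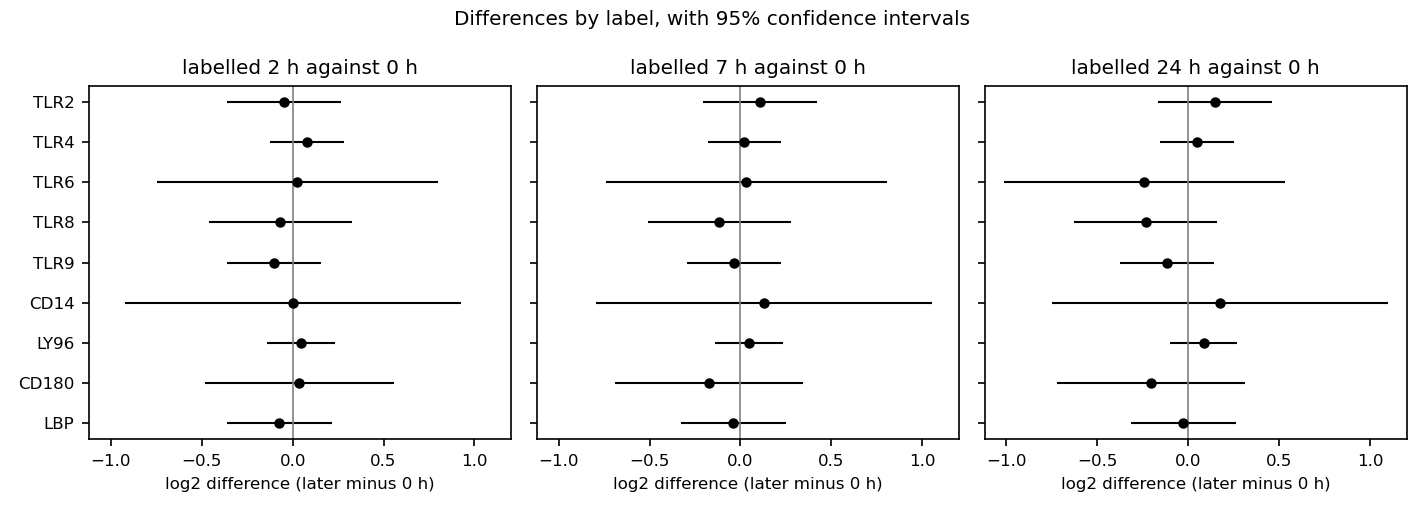
Differences in log2 intensity of the 9 genes between each labelled time and 0 h (points) with 95% confidence intervals from limma (bars), on 12 pig-by-time means. All intervals include 0, and that of CD14 at 24 h reaches from -0.75 to 1.10.

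Set without labels, the genes fell into wide and narrow ones. CD14 spanned 3.86 log2 units over the 23 arrays (14.6-fold), TLR8 2.71 (6.55-fold) and TLR2 2.16 (4.46-fold), where the median named gene spanned 0.96. TLR6 spanned 1.88, TLR4 1.62, TLR9 1.47 and CD180 1.41. LY96 stayed within 0.55 at a bright 11.25 to 11.80, and LBP within 0.63 at a dim 4.21 to 4.84.

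Neighbouring arrays gave close values of the wide genes. Between the 11 neighbour pairs TLR2 differed by a median of 0.06 and at most 0.21 log2 units. TLR4 differed by at most 0.25, CD14 by at most 0.52 and TLR8 by at most 0.63. For LBP the largest pair difference, 0.45, was most of its span, so its values hold little beyond the difference between such pairs. These neighbours resembled each other on other probe sets too, so their differences are a low guide to the error between cultures.

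**Figure D3:**
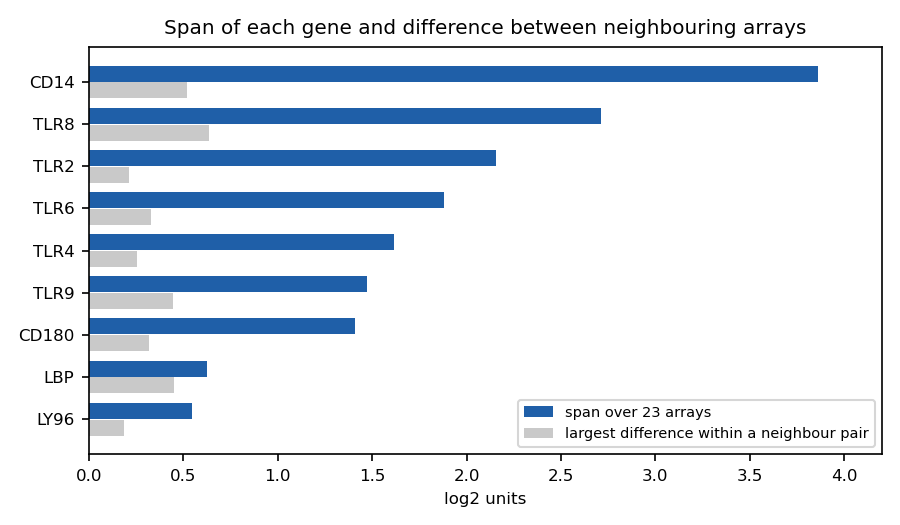
Span of each gene over the 23 arrays (upper, blue bars) and largest difference within the 11 pairs of neighbouring arrays (lower, grey bars), both in log2 units. CD14 spans 3.86 against a largest pair difference of 0.52, and LBP 0.63 against 0.45.

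The values are next described by place in the table, in runs of places 1 to 6, 7 to 12, 13 to 18 and 19 to 23. Had the columns been laid out with time outermost, pigs within time and cultures within pigs, these runs would be 0, 2, 7 and 24 h and the neighbours would be duplicate cultures. The labels do not give this order, and it was taken up with the values known. No time is therefore assigned, and nothing is averaged or tested over the runs. The 8 arrays with low EIF1AY (3.60 to 4.08, against 8.16 to 9.45 on the others) stood at places 3, 4, 9, 10, 15, 16, 21 and 22, the second pair of each run. TNF, a cytokine released by activated macrophages, lay between 5.42 and 6.10 at places 1 to 6, between 12.35 and 12.56 at 7 to 12, between 10.06 and 11.30 at 13 to 18, and between 6.20 and 10.66 at 19 to 23.

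Among the surface receptors, TLR2 lay higher in all 3 later runs than at places 1 to 6. Its log2 intensity at places 1 to 6 was 10.51 at the lowest, 10.68 at the median and 11.07 at the highest. At places 7 to 12 these values were 11.63, 11.72 and 12.05, and at places 13 to 18 they were 12.01, 12.39 and 12.53. The 5 arrays at places 19 to 23 had 12.50, 12.52, 12.63, 12.67 and 12.17. No array of the later runs reached down to those of the first run, and the gap was 0.56 for places 7 to 12 and 1.10 for places 19 to 23. TLR2 and TNF did not peak in the same run: TLR2 had its highest array at place 22 and TNF at place 11. IL1B, the other cytokine used as a reference, had its highest array at place 14. It lay at 7.53 to 8.60 at places 1 to 6 and still at 12.70 to 14.21 at places 19 to 23. Over the 23 arrays TLR2 correlated with IL1B at 0.88 and with TNF at 0.54.

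TLR4, the LPS receptor itself, lay lower in the later runs on its brightest probe set. There it had 9.49, 9.62 and 9.70 log2 intensity (lowest, median, highest) at places 1 to 6, and 8.78, 8.82 and 9.17 at places 7 to 12. At places 13 to 18 the values were 8.08, 9.14 and 9.29. The arrays at places 19 to 23 had 8.84, 8.93, 9.24, 9.45 and 8.73. These ranges did not overlap that of places 1 to 6, but the gaps of 0.20 for places 13 to 18 and 0.04 for places 19 to 23 were less than the largest pair difference of 0.25. The lowest values of all, 8.08 and 8.33, were those of the neighbours at places 17 and 18.

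TLR4 was read by 5 probe sets, and 4 of them followed each other over the arrays. Those with mean log2 intensities of 7.82, 7.08 and 6.96 correlated with the brightest one at 0.91, 0.90 and 0.97 over the 23 arrays. All 4 lay below places 1 to 6 at places 7 to 12. In the last 2 runs the probe sets with means of 7.82 and 6.96 overlapped with places 1 to 6, and the one with a mean of 7.08 lay below by only 0.01 at places 13 to 18 and by 0.15 at places 19 to 23. Lower TLR4 in these runs thus did not hold on every probe set. The remaining one, at a dim mean of 4.26, had a correlation of 0.07 and a span of 0.64. The plot of the TLR4 probe sets shows the low values at places 17 and 18 in the same 4.

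**Figure D4:**
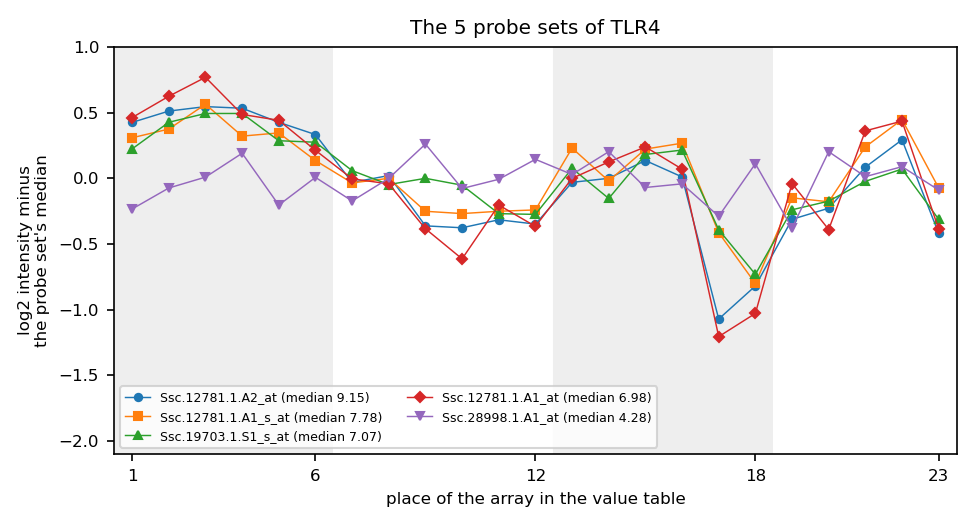
The 5 probe sets of TLR4 over the 23 arrays in table order, each as log2 intensity minus its own median over the arrays (median in the legend); shaded bands mark places 1 to 6 and 13 to 18. The 4 brighter probe sets have their highest medians at places 1 to 6 and are lowest at places 17 and 18, and the dim one is not.

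TLR6, a partner of TLR2, overlapped with its first range in every run and was spread widely within the last 2. It had 6.25 to 6.77 at places 1 to 6 and 6.67 to 7.02 at places 7 to 12, which overlap. At places 13 to 18 the arrays had 6.95, 6.71, 7.86, 7.72, 7.30 and 7.55. At places 19 to 23 they had 6.76, 6.43, 8.14, 8.06 and 7.64. In both later runs the second pair, with low EIF1AY, was the highest and the first pair was the lowest.

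CD14, which hands LPS to TLR4, had the widest span of the 9 genes. Its log2 intensity was 8.43, 8.59, 7.46, 7.13, 7.80 and 7.85 at places 1 to 6. At places 7 to 12 it was 10.36, 9.84, 9.45, 9.43, 9.22 and 9.25. At places 13 to 18 it was 11.00, 10.81, 9.34, 9.19, 8.68 and 8.64, and at places 19 to 23 it was 10.21, 10.28, 9.58, 9.63 and 9.12. All later arrays lay above all of places 1 to 6, although at places 13 to 18 the gap was only 0.05, against a largest pair difference of 0.52. Within each of the 4 runs the first pair had the highest CD14, so that the level followed the place within the run as well as the run. A second CD14 probe set (mean 5.90) spanned 0.81, correlated with the first at 0.65 and overlapped with places 1 to 6 in every run.

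LY96, the partner that lets TLR4 bind LPS, varied least of the 9 genes. It ran from 11.44 to 11.76 at places 1 to 6, from 11.29 to 11.61 at places 7 to 12, from 11.37 to 11.80 at places 13 to 18 and from 11.25 to 11.62 at places 19 to 23. All runs overlapped. At the later places the brightest probe sets of TLR4 and CD14 thus lay below and above their first ranges, while LY96 overlapped with its own.

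CD180 overlapped with places 1 to 6 (5.85 to 6.32) in every later run. It lay between 5.58 and 5.87 at places 7 to 12 and between 6.14 and 6.55 at places 13 to 18. At places 19 to 23 it was 5.46, 5.71, 6.57, 6.87 and 5.81, with the neighbours 21 and 22 apart from the other 3. Its partner LY86 lay between 5.16 and 6.68 at places 1 to 6 and between 6.90 and 8.68 at places 19 to 23, which did not overlap. The third pair of each run, or the lone array at place 23, lay wholly above the others in LY86 in 4 of 4 runs. The same order held for CD2 and for TNF in 3 of 4 runs each. No share over all probe sets is given for such orders, so nothing particular to LY86 is read from this count. LBP, whose main source is the liver, overlapped in every run and stayed dim.

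Of the endosomal receptors, TLR8 lay lowest late in the table. It had 6.59, 6.80 and 7.04 log2 intensity (lowest, median, highest) at places 1 to 6, and 6.03, 6.69 and 7.04 at places 7 to 12. At places 13 to 18 it had 5.26, 5.76 and 6.15, and at places 19 to 23 the arrays had 4.61, 4.50, 4.33, 4.96 and 4.44. The first 2 runs overlapped, and the last lay wholly below the one before it, 1.62 log2 units from the lowest of places 1 to 6. For places 13 to 18 that gap was 0.43, less than the largest pair difference of 0.63. Under places 7 to 12, the neighbours 11 and 12 (6.05 and 6.03) stood apart from the other 4 (6.66 to 7.04). All 5 values of the last run were under the dim level of 5.

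TLR9 was also lowest late in the table, over a smaller range. It lay between 5.76 and 6.75 at places 1 to 6, between 5.63 and 6.24 at places 7 to 12 and between 5.57 and 5.98 at places 13 to 18. At places 19 to 23 it was 5.29, 5.34, 5.48, 5.27 and 5.28, wholly below places 1 to 6 with a gap of 0.28, less than the largest pair difference of 0.44. UNC93B1, which carries endosomal receptors out of the endoplasmic reticulum, overlapped at first and lay higher later, with 5.51 to 5.75 at places 1 to 6, 5.58 to 5.97 at places 7 to 12, 6.31 to 6.54 at places 13 to 18 and 6.17 to 6.68 at places 19 to 23. HSP90B1, the chaperone that folds toll-like receptors, lay between 12.33 and 12.69 at places 1 to 6 and between 11.54 and 12.21 at places 19 to 23.

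**Figure D5:**
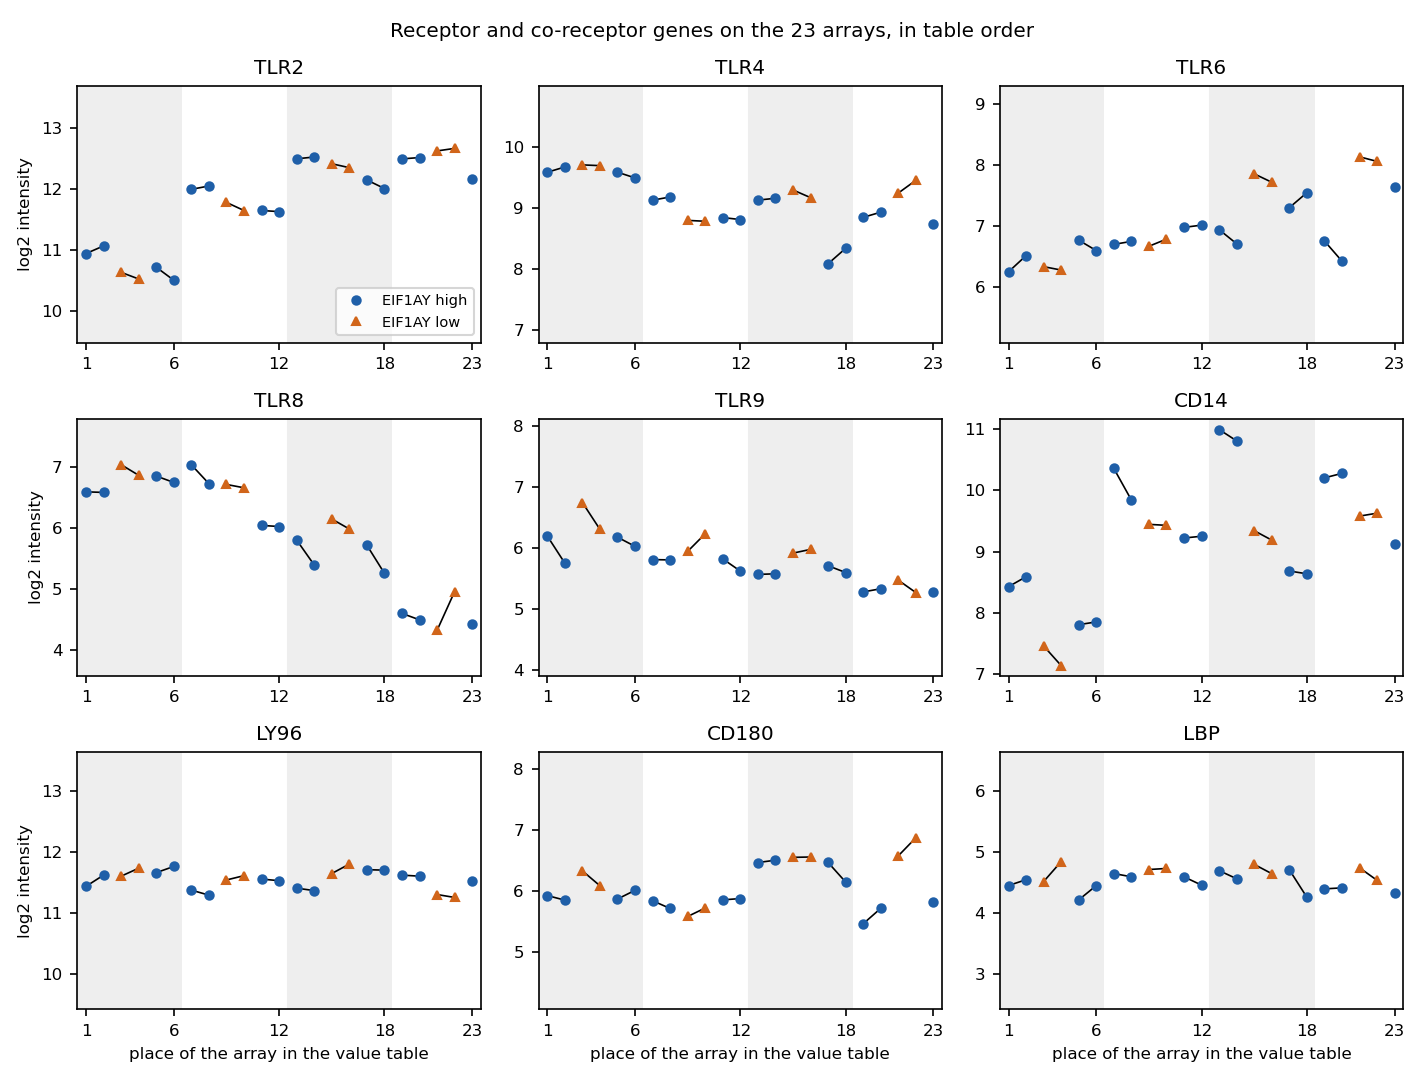
Log2 intensity of the 9 genes on the 23 arrays in table order, on axes of equal height; lines join neighbouring arrays, triangles mark low EIF1AY, and shaded bands mark places 1 to 6 and 13 to 18. TLR2 and CD14 are lowest at places 1 to 6, TLR4 is highest there, TLR8 is lowest at places 19 to 23 (4.33 to 4.96), and LY96 and LBP overlap in all runs.

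Counted over the 9 genes, each by its brightest probe set, 3 had ranges at places 7 to 12 that did not overlap places 1 to 6: TLR2 and CD14 above, TLR4 below. Among all probe sets 12.6% did so, and among named genes, with 1 probe set each, 16.9%. For places 13 to 18, TLR8 joined them below, which made 4 of 9, against 29.7% of all probe sets and 42% of named genes. For places 19 to 23, TLR9 joined too, which made 5 of 9, against 25% and 36.4%. With only 9 genes, nothing particular to them is read from these shares. TLR6, LY96, CD180 and LBP overlapped in all 3.

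Other genes of the pathway were not all represented. Of 10 other toll-like receptors and LPS-binding surface proteins, 4 had a named probe set (TLR1, ITGAM, ITGB2 and SCARB1), and 0 of 4 were displaced from places 1 to 6 in any run. TLR1, the other partner of TLR2, was dim at 3.95 to 4.89. Of 19 adaptors and kinases, 8 were measured; 3 lay above at places 7 to 12, 4 above and 1 below at places 13 to 18, and 1 above at places 19 to 23. Of 15 NF-kB factors and inhibitors, 7 were measured; 4 lay above at places 7 to 12, 4 above and 1 below at places 13 to 18, and 3 above at places 19 to 23. Among all named genes the shares without overlap were 16.9%, 42% and 36.4% for these 3 runs, and nothing particular to the lists is read from their counts. By label, 0 genes of these lists and of the 3 measured chaperones and partners passed the limma test in any comparison, beside the shares of all probe sets given above.

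Markers of other cells also varied with place in the table. Summed over 4 of 6 granulocyte and precursor markers, log2 intensity ran from 10.19 to 11.83 at places 1 to 6 and from 13.67 to 13.89 at places 19 to 23, where TLR8 and TLR9 were lowest. That sum followed S100A9, at 9.46 to 11.39 and 13.56 to 13.73 in these runs. ELANE, a granulocyte precursor protease, lay at 6.89 to 8.10 at places 1 to 6 and lower, at 5.05 to 5.99, at places 19 to 23, while S100A8 and S100A12 overlapped. The 3 of 5 erythroid and platelet markers summed to 8.87 to 9.13 at places 1 to 6, 8.42 to 8.66 at 13 to 18 and 8.27 to 8.50 at 19 to 23. Among them the haemoglobin gene HBB lay at 7.90 to 8.35, 6.56 to 7.40 and 6.01 to 6.82, below its first range in the same runs as TLR8. ALAS2 did not fall with it, at 5.32 to 5.62 at places 1 to 6 and 5.48 to 5.83 at places 19 to 23. Nor did GP9, at 7.40 to 7.63 and 7.50 to 7.66, and both genes overlapped in every run. The 4 endothelial markers summed to 10.31 to 10.77 at places 1 to 6 and 9.87 to 10.57 at places 19 to 23, which overlap. That sum followed PECAM1, at 9.68 to 10.70 over the 23 arrays. VWF lay at 5.59 to 6.38, while CDH5 (4.12 to 4.61) and KDR (3.83 to 4.37) stayed under 5. The 4 of 5 stromal markers summed to 8.16 to 10.33 at places 1 to 6 and 8.18 to 9.26 at places 19 to 23. Their members differed in direction. LUM lay at 5.18 to 9.38 and 3.23 to 6.13 in these runs, and DCN had medians of 5.86 and 4.81. COL1A2 lay at 6.80 to 7.26 and 7.08 to 7.42, and LUM, DCN and COL1A2 overlapped in every run. COL3A1 lay above its first range (6.40 to 6.72) at places 7 to 12 (6.74 to 7.25) and 13 to 18 (6.88 to 7.81), and overlapped at places 19 to 23. The 5 of 6 T and NK cell markers summed to 7.17 to 7.53 at places 1 to 6 and 7.72 to 10.59 at places 19 to 23. Among these CD2 ran from 5.18 to 10.45 over the 23 arrays, while the defining CD3E and CD3G stayed under 5 and CD3D lay at 5.61 to 6.31. B and plasma cell markers (2 of 5) ran from 8.19 to 9.27 at places 1 to 6 and from 7.26 to 8.40 at places 19 to 23. JCHAIN alone had 8.10 to 9.23 and 7.06 to 8.30, while CD79B stayed dim over the 23 arrays at 4.10 to 4.51. Macrophage markers ran from 12.87 to 13.12 and from 13.25 to 13.52 at the same places. That sum followed AIF1, at 12.62 to 12.97 and 12.80 to 13.36, with CD163 at 9.27 to 9.86 and 9.86 to 11.36. CD163 did not rise steadily, since it reached lower at places 13 to 18, at 7.85 to 9.36. MRC1 lay at 7.01 to 8.42 at places 1 to 6 and reached lower, at 6.20 to 8.08, at places 19 to 23. MARCO and ITGAM overlapped. The part of these cells in the receptor values was not tested, and in such bulk RNA fewer cells of a type cannot be told from less RNA per cell.

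The genes most like each receptor over the 23 arrays were named as a description. The arrays form neighbour pairs and are not independent, so no p is given. TLR2 was most like CEBPB (Pearson r = 0.97), ETS2 (0.96) and CCNG2 (0.95). CD14 was most like BHLHE40 (0.86), ETS2 (0.85) and NDEL1 (0.84), so ETS2 stood near both. TLR4 was most like IDH2 (0.85), ZNF32 (0.83) and BIVM (0.83). TLR6 was most like RFLNA (0.96), GRIP1 (0.93) and CD2 (0.92). CD2 is on the T and NK cell list, but CD3E and CD3G of that list stayed under 5. TLR8 was most like FABP3 (0.96), ANAPC1 (0.96) and DAD1 (0.95). For TLR9 these genes were SEM1 (0.93), MRPL17 (0.88) and AP3M1 (0.88), and for CD180 they were WDFY2 (0.88), NDUFAB1 (0.84) and NKIRAS2 (0.83).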

How the data were processed

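The authors deposited a linear intensity per probe set and array, made with RMA and affy according to the submitters' processing notes (versions not given in the sources used here). That step background-corrects the arrays and makes them comparable. Array medians ran from 69.5 to 73.9 intensity units; the number of arrays limits the precision. The log2 of each value was taken with no further normalization, since the design had assumed log2. Of 24123 probe sets, 124 controls were left out. The platform annotation gave 1 gene for 10069 of the rest, several for 198 and none listed for 13732; symbols were updated through the gene identifier (9961 matched in the RefSeq table of Sscrofa11.1). A gene with several probe sets was represented by the one of highest mean.

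Groups follow the labels. Duplicate cultures were averaged to 12 pig-by-time means, and limma (3.58.1, R 4.3.3) fitted time and pig, with 6 residual degrees of freedom and a Benjamini-Hochberg threshold of 0.05 over 23999 probe sets. The pigs pair the samples because the series text says the same animals gave every time. The fit was tested on simulated data whose pigs and times followed the labels, so that test says nothing on whether the labels hold. Places in the table were used for description only. The genes, lists and tests were chosen with earlier results of these data known. The rule for named genes took the 9 genes, TNF, IL1B and EIF1AY, the listed pathway and marker genes, and the 3 most correlated genes for each of the 9 that spanned at least 1 log2 unit. Alternatives covered the pig block, the cultures, dim probe sets (mean under 5), renormalization, the choice of probe set and left-out arrays.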

Additional observations from a re-analysis of the deposited data

How the results depend on the processing

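None of the 9 genes passed under any of the 10 alternative fits in any of the 4 comparisons by label; LBP was not tested where probe sets with a mean under 5 were left out. The counts over all probe sets were small and unstable. For 2 h against 0 h, 3 as reported became 30 when all 23 arrays entered with a random block for each pig and time, and 0 with first cultures only, with duplicate cultures only, after quantile normalization again and without the arrays against their labelled sex. For 24 h against 0 h, 1 became 15, 0, 0, 0 and 3 in that order, and 2 without the replicate block of pigs. Over all times, 2 became 34, 0, 0, 1 and 1. For 7 h against 0 h, 0 became 1 without the arrays against their sex. Leaving out each labelled pig gave 0 in each of these 4. The fit without the replicate block changed no call of the 9 genes.

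Taking the probe set with the lowest mean, where a gene had several, lowered the genes without overlap with places 1 to 6 from 3 to 1, 4 to 2 and 5 to 3 for the 3 later runs, and the span of TLR4 to 0.64 and of CD14 to 0.81; that probe set of TLR4 is dim. Quantile normalization left these counts and spans near their values. Leaving out each array in turn, chosen after seeing the data, gave 3 to 4, 4 to 5 and 5 to 5. The dim signal of LBP, TLR1 and late TLR8 limits what can be seen there.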

Other observations

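Within each labelled time, 0 of 36 combinations of gene and time had an array apart from the others by Dixon's criterion. A pair of neighbours, or the lone array at place 23, was counted as apart where all its arrays lay above, or all below, every other array of the run. By this count the second pair, with low EIF1AY, lay above in TLR4, TLR9 and CD180 in 3 of 4 runs each. In TLR4 it lay below in 1 run. The first pair lay above in TLR2 in 3 of 4 runs. In CD14 the first pair lay above in 4 of 4 runs and the third below in 3 of 4. In the dim LBP the third pair also lay below in 3 of 4 runs, so such orders also occur where the values differ little. How often such orders arise over all probe sets was not counted. Nothing particular to these genes, or to the level of EIF1AY, is therefore read from the counts.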
